A study of Mus musculus with 16 samples.

Results

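Glutamate receptors and proteins of the postsynaptic density were followed in CD11b-selected microglia of the olfactory bulb, as 29 genes of the 57010 in the count table. The 29 genes were taken by name: 4 AMPA, 3 NMDA, 3 kainate and 2 metabotropic receptor genes, 9 scaffold genes, 2 auxiliary subunit genes and 6 genes of kinases, GTPase regulators and other signalling partners. All 29 passed the filter on low counts, which kept 18227 genes. The 16 libraries came from mice aged 2 months. Female and male WT mice (C57BL/6J) gave 4 libraries each. Female and male APP-NL-G-F knock-in mice, called KI as in the labels, also gave 4 libraries each. WT mice carry the unmodified App gene. KI mice carry 3 disease-associated mutations in the mouse App locus itself, so that every App-expressing cell is affected and no promoter or Cre restricts the change to a cell type. Neither genotype received a treatment. Cells were released with papain, bound to CD11b beads and passed over 2 columns, and no source used here says whether animals were pooled.

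At an excitatory synapse, glutamate released from the presynaptic terminal opens AMPA, NMDA and kainate receptor channels, while metabotropic glutamate receptors signal through G proteins. AMPA receptors carry most of the fast current. NMDA receptors admit calcium once the membrane is depolarised, and the calcium activates CaMKII. Below the membrane lies the postsynaptic density, a layered scaffold in which PSD-95 family proteins bind receptors, SAPAP proteins bind PSD-95, and Shank and Homer proteins link the complex to the cytoskeleton and to metabotropic receptors. In the olfactory bulb such synapses lie mainly on the dendrites of mitral, tufted, granule and periglomerular neurons. Microglia contact synapses and can engulf synaptic material.

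The libraries held between 9052932 and 18117286 counts. Xist lay between 547 and 862 CPM (counts scaled to the TMM-adjusted library total) in females and at most at 0.448 CPM in males, and Ddx3y was at or above 79.9 CPM in males and at most at 0.0669 CPM in females, so the labelled sexes matched these transcripts. App, whose single row may hold reads of the unmodified and the modified sequence, ranged from 370 to 462 CPM in WT and from 388 to 422 CPM in KI libraries and does not check the genotype labels. The 15 microglia markers, among them P2ry12, Tmem119 and Cx3cr1, summed to 24876 CPM in WT and 24878 CPM in KI libraries (mean, n = 8 each), and none of them differed between the genotypes at an FDR below 0.1. The 29 synapse genes together summed to 1612 ± 313 CPM in WT and 2054 ± 324 CPM in KI libraries (SD, n = 8 each). In bulk libraries such as these, fewer cells of a type and less RNA per cell cannot be told apart.

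A few libraries stood apart for these genes. KI male replicate 3 was the lowest KI male for 29 of the 29 genes, and WT male replicate 2 was the lowest WT male for 28 of them. Among females, WT replicate 4 was the highest WT library for 25 genes and KI replicate 3 the highest KI library for 23. WT female replicates 1 and 2 were the lowest WT females, for 13 genes each and so for 26 of the 29. The same WT females had the highest levels of endothelial and astrocyte markers, lists described further on. Flt1, an endothelial receptor for VEGF, was at 46.3 and 58.2 CPM in them, against 28.8 and 18.7 CPM in the other WT females and at most 23.5 CPM in KI females. All 16 libraries entered every main fit, and the main counts are also given without both low male libraries and without both of these WT females, settings chosen after seeing the data. The low male libraries were picked for their low levels of these 29 genes. Leaving them out narrows the range of the same genes within the male groups, so values from that fit are a description.

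A set of 3 promoters is printed because they belong to the called gene with the smallest FDR, the called receptor gene with the smallest FDR and the gene with the largest FDR over both sexes. Each runs from 250 bases before to 50 bases after the annotated start of the gene's canonical transcript (GRCm39, gencode vM39), 5′ to 3′ on the strand of the gene. Capitals mark a GC box (GGGCGG) or a CCAAT box (CCAAT), read on either strand.
Cnksr2 (chrX:156827082-156827381, minus strand): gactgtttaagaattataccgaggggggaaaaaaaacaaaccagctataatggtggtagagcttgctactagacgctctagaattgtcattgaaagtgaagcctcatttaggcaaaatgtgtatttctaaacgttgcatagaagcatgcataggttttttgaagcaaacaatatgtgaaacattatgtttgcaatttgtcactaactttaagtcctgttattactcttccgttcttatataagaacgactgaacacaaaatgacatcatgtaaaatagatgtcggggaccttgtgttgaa
Grin2b (chr6:136150252-136150551, minus strand): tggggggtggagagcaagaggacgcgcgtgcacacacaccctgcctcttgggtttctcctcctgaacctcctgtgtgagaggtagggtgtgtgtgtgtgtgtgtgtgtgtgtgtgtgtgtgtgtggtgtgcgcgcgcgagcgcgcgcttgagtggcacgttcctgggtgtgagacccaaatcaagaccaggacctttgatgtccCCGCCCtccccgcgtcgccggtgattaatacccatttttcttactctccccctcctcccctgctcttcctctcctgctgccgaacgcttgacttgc
Dlg3 (chrX:99810518-99810817, plus strand): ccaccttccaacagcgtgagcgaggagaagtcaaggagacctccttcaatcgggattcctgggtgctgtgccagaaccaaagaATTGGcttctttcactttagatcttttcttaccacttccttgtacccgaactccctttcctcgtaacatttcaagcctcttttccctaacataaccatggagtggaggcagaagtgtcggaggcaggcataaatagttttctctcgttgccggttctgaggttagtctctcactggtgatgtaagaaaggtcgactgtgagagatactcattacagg
Neither box was found in the window of Cnksr2, whose GC content was 35.7%, the lowest of the 29. The window of Grin2b held 1 GC box on the opposite strand, and that of Dlg3 held 1 CCAAT box on the opposite strand. Over all 29 genes, 12 windows (41.4%) held a GC box and 9 (31%) a CCAAT box, against 56.8% and 39.1% of the 13672 windows of tested protein-coding genes. A TATA box (TATAAA) was found only in the window of Gria2 among the 29 (3.45%), against 8.25% of all windows. The core of the CRE (TGACG), which is also part of the full CRE, was in the windows of Grin1, Grik2, Homer1 and Sipa1l1 (13.8%) and in 28.4% of all windows. The full CRE (TGACGTCA) was in 0 of the 29 and 3.14% of all windows, and the left part of the RE1 element (TTCAGCACC), which the neuronal repressor REST binds, in 0 of the 29 and 0.315% of all. The median ratio of observed to expected CpG was 0.486 for the 29 genes and 0.69 for all windows. These counts describe letters in fixed windows and were not tested.

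The first question was whether the genotypes differed in these transcripts over both sexes. All 29 genes had a log2 fold change above 0 in KI against WT libraries, with a median of 0.40 and a range of 0.04 to 0.74, while 9034 of the 18227 tested genes lay above 0 and their median was -0.00. Called higher were 9 of the 29 genes, against 4.33% of all tested genes, and 0 were called lower: the AMPA receptor subunits Gria2, Gria3 and Gria4, the NMDA receptor subunits Grin2a and Grin2b, the kainate receptor subunit Grik2, the metabotropic receptor Grm5, the auxiliary subunit Cacng2 and the signalling scaffold Cnksr2. Calls required, in edgeR's quasi-likelihood test with sex as a covariate, an FDR (Benjamini-Hochberg, over all tested genes) below 0.1 together with a log2 fold change beyond 0.5 in size. A further 9 genes passed the FDR with a smaller fold change, so that 18 of 29 were past the FDR alone, against 6.95% of all tested genes. The remaining 11 had an FDR of 0.1 or above.

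These counts depended on single libraries. Without both low male libraries, 10 genes were called, the same 9 and Shisa7, against 5.25% of all tested genes, and the median log2 fold change was 0.38. Without both WT female replicates 1 and 2, 1 gene was called, Cnksr2, against 1.6% of all tested genes, and the median log2 fold change of the 29 was 0.31. Leaving out 1 library at a time gave 3 called genes without WT male replicate 2 (2.56% of all tested genes), 4 without WT female replicate 1 (2.55%), 4 without KI female replicate 3 (2.6%), 4 without KI male replicate 2 (2.57%), 5 without KI male replicate 1 (2.79%) and 14 without KI male replicate 3 (7.24%). The median log2 fold change was between 0.34 and 0.46 in these 16 fits. Grin2b and Grm5 were called in 16 of them, Gria3 and Cnksr2 in 14, Grin2a and Cacng2 in 13, Gria2 and Gria4 in 8 and Grik2 in 7. With the mean log2 CPM of 15 neuron markers as a covariate, 0 of the 29 genes were called, against 0.225% of all tested genes, and their median log2 fold change was 0.23. That covariate was itself higher in KI libraries, so the fit cannot tell neuron content from genotype.

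**Figure D1:**
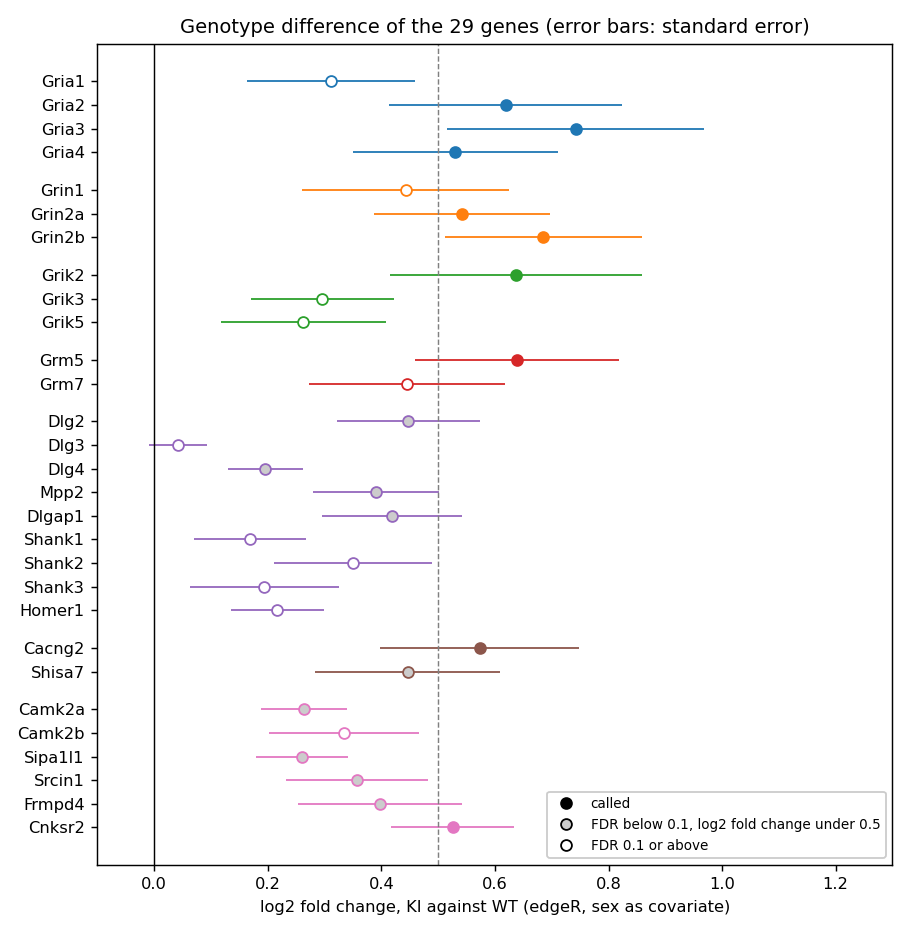
Log2 fold change of KI against WT (x axis) for each of the 29 genes (y axis, grouped by role), with the standard error from edgeR's quasi-likelihood fit over 16 libraries and the 0.5 threshold as a dashed line. All 29 points lie to the right of 0, and the 9 filled points, the called genes, are mostly receptor subunits.

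AMPA receptors are tetramers of the subunits GluA1 to GluA4, encoded by Gria1 to Gria4. Of the 4 genes 3 were called higher. Gria2 (chr3:80588757-80710538, minus strand), whose edited subunit keeps the channel nearly impermeable to calcium, was measured at 48.2, 44.7, 55.2 and 96.1 CPM in WT females, 74.8, 103, 124 and 113 CPM in KI females, 78.7, 42.1, 107 and 105 CPM in WT males and 131, 155, 64.7 and 109.7 CPM in KI males. In each sex the libraries overlapped between the genotypes, and 5 of 8 KI libraries lay above the highest WT library. The fitted log2 fold change was 0.62 (standard error 0.21, edgeR FDR 0.0655, exact permutation of genotype within sex, two-sided p = 0.0237).

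Gria3 (chrX:40489476-40767490, plus strand) had the largest change of the 29 genes, at 10.5, 7.63, 13 and 20.5 CPM in WT females, 16.3, 21, 32.3 and 22 CPM in KI females, 18.4, 8.66, 22.6 and 20.1 CPM in WT males and 31.2, 36.7, 13.3 and 28.2 CPM in KI males. Its low libraries were WT female replicate 2 and WT male replicate 2. Of the 8 KI libraries 4 lay above every WT library, and KI male replicate 3 was among those within the WT range. That is a log2 fold change of 0.74 (standard error 0.23, edgeR FDR 0.047, exact permutation p = 0.0196). Gria4 (chr9:4417604-4796326, minus strand) was measured at 17.4, 13.9, 19.2 and 31.7 CPM in WT females, 29.8, 29.3, 39.9 and 34.8 CPM in KI females, 26.6, 17.3, 33.1 and 34.2 CPM in WT males and 40.7, 45.2, 20 and 35.9 CPM in KI males. Its groups overlapped as well, with 5 of 8 KI libraries above every WT library. For Gria4 the log2 fold change was 0.53 (standard error 0.18, edgeR FDR 0.0735, exact permutation p = 0.0302).

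Gria1 (chr11:56902153-57221080, plus strand) encodes the subunit whose insertion accompanies synaptic potentiation. Per exonic length it had the highest level of the 4, at 10.3 CPM per kb in WT against 2.63 for Gria2, 1.34 for Gria4 and 1.19 for Gria3. Before that division the WT means of Gria1 and Gria2 were 84.8 and 72.1 CPM. The lengths used, 8200 and 27443 bases, join all exons annotated in a later release than the one counted on. The levels per kb therefore depend on the annotation and are not transcript numbers. Gria1 had a lowest, median and highest CPM of 54.7, 86.4 and 109 in WT libraries and of 71.4, 106 and 144 in KI libraries. The Gria1 log2 fold change of 0.31 (standard error 0.15) did not pass the FDR (edgeR FDR 0.206).

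NMDA receptors pair the obligatory subunit GluN1 (Grin1) with GluN2 subunits that set the channel's kinetics. Both GluN2 genes listed here were called higher and Grin1 was not. Grin2b (chr6:135690231-136150548, minus strand), prominent in young and extrasynaptic receptors, was measured at 58.5, 57.5, 69.1 and 113 CPM in WT females, 95.6, 127, 157 and 133 CPM in KI females, 106, 61.7, 108 and 103 CPM in WT males and 164, 182, 78.8 and 145 CPM in KI males. All 4 KI females lay above the 3 lower WT females, and 6 of 8 KI libraries lay above every WT library. edgeR gave a log2 fold change of 0.68 (standard error 0.17, edgeR FDR 0.0185, exact permutation p = 0.00857).

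Grin2a (chr16:9385762-9813424, minus strand), whose subunit predominates at mature synapses, was measured at 23.8, 26.1, 31.8 and 47.2 CPM in WT females, 40.1, 47.2, 59.6 and 52 CPM in KI females, 50.7, 26.3, 36.3 and 39.1 CPM in WT males and 64.3, 58.7, 34.1 and 52.1 CPM in KI males. All 8 KI libraries lay above the WT median, while the ranges overlapped. For Grin2a the log2 fold change was 0.54 (standard error 0.16, edgeR FDR 0.0345, exact permutation p = 0.0126). Grin1 had a lowest, median and highest CPM of 56.4, 108 and 142 in WT libraries and of 94.8, 151 and 162 in KI libraries. Its log2 fold change was 0.44 (standard error 0.18, edgeR FDR 0.137). KI male replicate 3 lay far below the other 3 KI males for Grin1, at 94.8 CPM against 162, 161 and 157 CPM. Without both low male libraries, picked for low levels of these genes, its log2 fold change was 0.46 (edgeR FDR 0.0705).

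Kainate receptors act at synapses and on presynaptic terminals. Grik2 (chr10:48970929-49664880, minus strand), a subunit that can form the channel alone, was measured at 7.88, 7.86, 9.57 and 14.1 CPM in WT females, 11.7, 17.3, 21.4 and 16.6 CPM in KI females, 13, 5.74, 14.7 and 18 CPM in WT males and 18, 27.4, 9.23 and 17.4 CPM in KI males. Most of the KI libraries lay inside the WT range, and 3 of 8 lay above it. The fitted log2 fold change was 0.64 (standard error 0.22, edgeR FDR 0.0802, exact permutation p = 0.0331). Grik3 and Grik5, the latter a subunit that needs a partner such as the Grik2 product, had log2 fold changes of 0.30 (standard error 0.13, edgeR FDR 0.155) and 0.26 (standard error 0.15, edgeR FDR 0.289). None of the KI libraries exceeded the highest WT library for Grik5. Grik5 overlaps Zfp574 on the opposite strand, a gene with 3365 counts over the 16 libraries, and the strand column used for counting is not given in the sources used here.

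Metabotropic receptors were represented by Grm5, a group I receptor that is postsynaptic and bound by Homer proteins, and by Grm7, a presynaptic group III receptor. Grm5 (chr7:87233376-87784594, plus strand) was measured at 8.19, 7.98, 10.7 and 15 CPM in WT females, 12.5, 15.8, 23.9 and 17.7 CPM in KI females, 11.8, 7.59, 14.9 and 16.9 CPM in WT males and 20.6, 22.6, 11.9 and 18.6 CPM in KI males. All 8 KI libraries lay above the WT median and 5 above every WT library. For Grm5 the log2 fold change was 0.64 (standard error 0.18, edgeR FDR 0.032, exact permutation p = 0.0098). Grm7 had a lowest, median and highest CPM of 4.69, 7.15 and 10.4 in WT libraries and of 5.88, 11.1 and 12 in KI libraries, and its log2 fold change was 0.45 (standard error 0.17, edgeR FDR 0.114).

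Auxiliary subunits control the traffic and gating of receptor channels. Cacng2 (chr15:77875948-78004441, minus strand), which encodes stargazin, a partner of AMPA receptors, was the least counted of the 29 genes, with 27 to 100 counts per library. It was measured at 2.69, 3.12, 2.86 and 5.13 CPM in WT females, 4.95, 5.37, 5.94 and 5.01 CPM in KI females, 4.8, 3.32, 3.92 and 4.47 CPM in WT males and 8.51, 6.7, 3.27 and 5.06 CPM in KI males. KI male replicate 3 lay below all 4 WT males, and 4 of 8 KI libraries lay above every WT library. For Cacng2 the log2 fold change was 0.57 (standard error 0.18, edgeR FDR 0.047, exact permutation p = 0.0143). Shisa7, an auxiliary subunit described for AMPA and GABA-A receptors, had a lowest, median and highest CPM of 11.3, 14.5 and 21.7 in WT libraries and of 10.7, 22.3 and 24.5 in KI libraries. The fitted log2 fold change of 0.45 (standard error 0.16, edgeR FDR 0.0927) passed the FDR but not the fold threshold. Without both low male libraries, picked for low levels of these genes, Shisa7 was called, with a log2 fold change of 0.51 (edgeR FDR 0.0124).

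**Figure D2:**
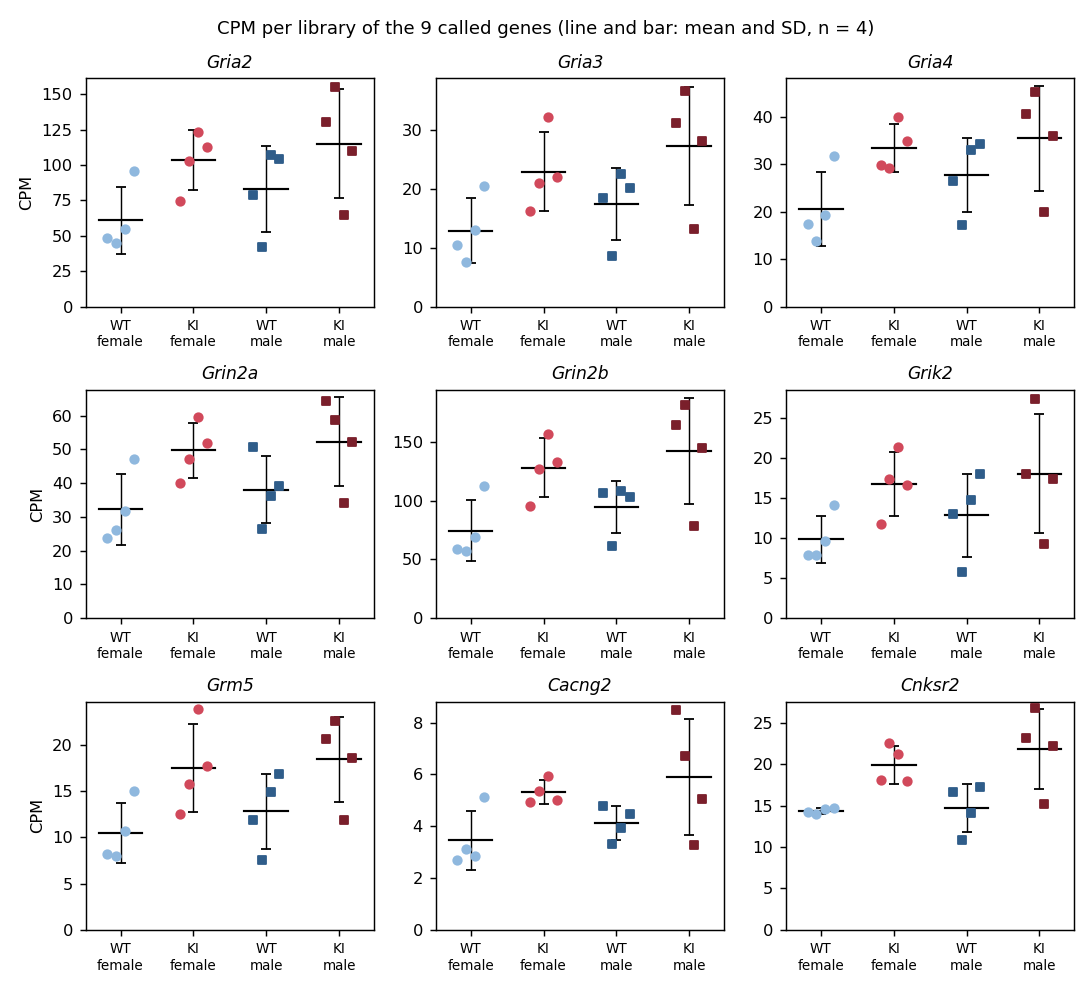
CPM (y axes, each from 0) of the 9 called genes in each library, by genotype and sex (x axes; n = 4 per group; line and bar, mean and SD). For each of the 9 genes the KI means exceed the WT means in both sexes. Within a sex the WT and KI points overlap in each panel except for Cnksr2 in females, with WT male replicate 2 and KI male replicate 3 lowest in their groups.

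Of the 9 scaffold genes 0 were called at the fold threshold and 4 passed the FDR alone. Their median log2 fold change was 0.22, against 0.57 for the 4 AMPA receptor genes and 0.54 for the 3 NMDA receptor genes. The kainate receptor genes (0.30) and the signalling partners (0.35) lay closer to the scaffold genes. The metabotropic receptor and auxiliary subunit genes had medians of 0.54 and 0.51. Dlg2 (PSD-93) had a lowest, median and highest CPM of 34.5, 44.8 and 60.1 in WT libraries and of 43.7, 61.6 and 88.6 in KI libraries. Its log2 fold change was 0.45 (standard error 0.13, edgeR FDR 0.0315). Dlg4, which encodes PSD-95, the most abundant scaffold of the density, had a lowest, median and highest CPM of 56.5, 70.7 and 76.9 in WT libraries and of 67.6, 80.1 and 89.4 in KI libraries. Its difference and its spread were both small, with a log2 fold change of 0.20 (standard error 0.07, edgeR FDR 0.0705).

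Mpp2, a further membrane-associated guanylate kinase, had a lowest, median and highest CPM of 10.7, 12.8 and 18.2 in WT libraries and of 14.5, 17.8 and 21.3 in KI libraries. All 8 KI libraries lay above the WT median for Mpp2, and its log2 fold change was 0.39 (standard error 0.11, edgeR FDR 0.0343, exact permutation p = 0.00775). Dlgap1, a SAPAP protein that joins PSD-95 to Shank, had a lowest, median and highest CPM of 66.7, 96.1 and 112 in WT libraries and of 84.3, 132 and 155 in KI libraries. In 6 of 8 KI libraries Dlgap1 exceeded every WT library, and its log2 fold change was 0.42 (standard error 0.12, edgeR FDR 0.039).

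The other 5 scaffold genes did not pass the FDR. Shank1, Shank2 and Shank3, the large scaffolds of the deep layer, had log2 fold changes of 0.17, 0.35 and 0.19 (edgeR FDR 0.322, 0.122 and 0.407). Homer1, which binds group I metabotropic receptors and Shank, had a lowest, median and highest CPM of 25.6, 32 and 41.9 in WT libraries and of 35.9, 37.8 and 41 in KI libraries, with a log2 fold change of 0.22 (standard error 0.08, edgeR FDR 0.103). All 8 KI libraries of Homer1 lay above the WT median and 0 above the highest WT library. Dlg3 (SAP102), the scaffold of young synapses, had the largest FDR of the 29 genes, at 34.7, 31.8, 34.1 and 35.1 CPM in WT females, 38.5, 38.1, 34.7 and 35.3 CPM in KI females, 38.1, 31.3, 36 and 33.1 CPM in WT males and 33.9, 35.5, 31.7 and 34.9 CPM in KI males. Its 16 libraries lay within 31.3 to 38.5 CPM, and its log2 fold change was 0.04 (standard error 0.05, edgeR FDR 0.678).

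All 6 genes of kinases, GTPase regulators and other signalling partners had an unadjusted p below 0.05. That count was not read as a result, because the share of all tested genes is not given here. Of these 6 genes 5 passed the FDR, against 6.95% of all tested genes that passed it with a higher level in KI libraries. Cnksr2 (chrX:156598284-156827131, minus strand), a scaffold of Ras signalling that binds PSD-95, had the smallest FDR of the 29 genes. It was measured at 14.3, 14, 14.6 and 14.7 CPM in WT females, 18.1, 22.5, 21.3 and 18 CPM in KI females, 16.7, 10.8, 14.1 and 17.3 CPM in WT males and 23.2, 26.8, 15.2 and 22.2 CPM in KI males. The 4 WT females lay close together, every KI female lay above them, and over both sexes 7 of 8 KI libraries lay above every WT library. For Cnksr2 the log2 fold change was 0.53 (standard error 0.11, edgeR FDR 0.00512, exact permutation p = 0.00122). Without both low male libraries, picked for low levels of these genes, it was 0.52 (edgeR FDR 0.000362).

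Camk2a and Camk2b encode the alpha and beta subunits of CaMKII. Camk2a had a lowest, median and highest CPM of 85.2, 115 and 125 in WT libraries and of 105, 133 and 146 in KI libraries, a log2 fold change of 0.26 (standard error 0.08, edgeR FDR 0.036). In 6 of 8 KI libraries Camk2a exceeded every WT library. Camk2b had a lowest, median and highest CPM of 97.9, 146 and 188 in WT libraries and of 126, 177 and 208 in KI libraries and did not pass the FDR, with a log2 fold change of 0.33 (standard error 0.13, edgeR FDR 0.121). Camk2b overlaps Ykt6 on the opposite strand, a gene with 15988 counts over the 16 libraries.

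Sipa1l1 (SPAR), a GTPase-activating protein for Rap that shapes dendritic spines, had the highest level per exonic length of the 29 genes, 16.4 CPM per kb in WT, followed by Shank1 at 15.8 and Camk2a at 11.4. It had a lowest, median and highest CPM of 179, 226 and 277 in WT libraries and of 221, 280.5 and 300.1 in KI libraries. Its log2 fold change was 0.26 (standard error 0.08, edgeR FDR 0.0527), and 5 of 8 KI libraries exceeded every WT library. Srcin1, a regulator of Src kinase, had a lowest, median and highest CPM of 29.2, 34.9 and 52 in WT libraries and of 31.5, 49.4 and 55.4 in KI libraries and a log2 fold change of 0.36 (standard error 0.13, edgeR FDR 0.0823). Frmpd4 (Preso), a spine scaffold, had the lowest level per exonic length, 0.581 CPM per kb in WT. With a lowest, median and highest CPM of 3.44, 5.75 and 8.05 in WT libraries and of 5.69, 7.4 and 9.35 in KI libraries, its log2 fold change was 0.40 (standard error 0.14, edgeR FDR 0.0932).

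Over the 29 genes together, the genotype ranges overlapped for every gene, and 25 genes had at least 7 of 8 KI libraries above the WT median. The shares of all tested genes with these patterns are not given here, so both counts were not read as results. The 29 genes also moved together from library to library. The Pearson correlation of a gene's log2 CPM with the mean z score of all 29, itself included, ranged from 0.513 for Dlg3 to 0.986 for Dlgap1 over the 16 libraries, and was above 0.9 for 22 genes. Libraries share depth and cell content, so these values are a description. Outside the lists, genes close to that mean included Add2 (r = 0.995), Dscam (r = 0.991), Adgrl3 (r = 0.987) and Myt1l (r = 0.985), with log2 fold changes of 0.47, 0.50, 0.40 and 0.47.

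The design also asked about the sexes. Within females the median log2 fold change of the 29 genes was 0.47, 29 of 29 lay above 0, and 1 gene, Grin2b, was called higher, against 2.82% of all tested genes. Grin2b had a log2 fold change in females of 0.78 (standard error 0.25, edgeR FDR 0.0766), and Cnksr2 passed the FDR at 0.47 (edgeR FDR 0.0881). DESeq2 called 4 genes in females, against 3.43% of all tested genes. Without WT female replicate 4 edgeR called 20, against 6.75%, and without both WT female replicates 1 and 2 it called 0, against 0.136%, with a median of 0.30 and 1 of the 29 at an unadjusted p below 0.05. Within males the median was 0.32, 28 of 29 lay above 0 (Dlg3 was at -0.02), and edgeR called 0 genes higher, against 0.0878% of all tested genes. In males 9 genes had an unadjusted p below 0.05, a count not read as a result because the share of all tested genes is not given here. DESeq2 called 1 in males, against 0.45% of all tested genes. Without both low male libraries, picked for low levels of these genes, 11 genes were called in females, against 5.34% of all tested genes. In males that fit called 1, Cnksr2, with a log2 fold change of 0.58 in males (edgeR FDR 0.0666), against 0.181% of all tested genes in males.

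The difference between the sexes in the genotype effect was tested directly. For 25 of the 29 genes the female log2 fold change was the larger, but edgeR's interaction test called 0 of the 29, against 0.0274% of all tested genes, with 0 at an unadjusted p below 0.05, a lowest FDR of 0.935 and 0 called by DESeq2. Between females and males over both genotypes, edgeR called 0 of the 29, against 0.0604% of all tested genes, with 1 gene at an unadjusted p below 0.05 and 0 called by DESeq2. Of the 29 genes 3 had a higher fitted level in females than in males, and the median log2 difference was -0.14.

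Genes of one family were then compared within a library, where a factor that scales both genes equally divides out. A factor that scales them unequally, as cell content may, does not. The Pearson correlation with the mean z score described above was 0.919 for Dlg2 but 0.513 for Dlg3. The part of cell content in the ratios was not tested. The 20 pairs were chosen after the values were seen, and p-values are from exact permutation of genotype within sex (4900 arrangements, two-sided), adjusted by Benjamini-Hochberg over the 20 pairs and read at 0.1, the threshold used for the genes. The log2 ratio of Gria1 to Gria2 was 0.29 ± 0.23 in WT and -0.04 ± 0.12 in KI libraries (SD, n = 8 each), a difference of -0.33 (exact permutation p = 0.00653, adjusted 0.0653). All 8 KI libraries lay below the WT median. The log2 ratio of Gria1 to Gria3 differed by -0.44 (exact permutation p = 0.00327, adjusted 0.0653), with 2.53 ± 0.28 in WT and 2.09 ± 0.20 in KI libraries (SD, n = 8 each), again with 8 of 8 KI libraries below the WT median. Gria1 to Gria4 differed by -0.23 (adjusted p = 0.0847, exact permutation).

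Among NMDA receptor genes, Grin1 to Grin2b differed by -0.20 (exact permutation p = 0.0302, adjusted 0.0847), with 8 of 8 KI libraries below the WT median, and Grin1 to Grin2a by -0.07 (adjusted p = 0.477, exact permutation). The log2 ratio of Grik2 to Grik5 differed by 0.35, that of Grm5 to Grm7 by 0.21 and that of Dlg2 to Dlg3 by 0.39 (adjusted p = 0.0847 each, exact permutation), with 8 of 8 KI libraries above the WT median in each case. Shank1 to Shank2 differed by -0.18 and Gria3 to Gria4 by 0.21 (adjusted p = 0.0847 and 0.0934, exact permutation). In all, 9 of the 20 pairs had an adjusted p below 0.1 and 0 below 0.05. These calls rested on single libraries as well. For Gria1 to Gria2 and Gria1 to Gria3 the adjusted p of the exact permutation test stayed below 0.1 in 14 of 17 repeats with another prior count or 1 library left out, and was at 0.111, 0.118 and 0.1 without KI male replicates 1, 2 and 4, while the other 7 pairs stayed below 0.1 in 5 to 10 of 17.

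**Figure D3:**
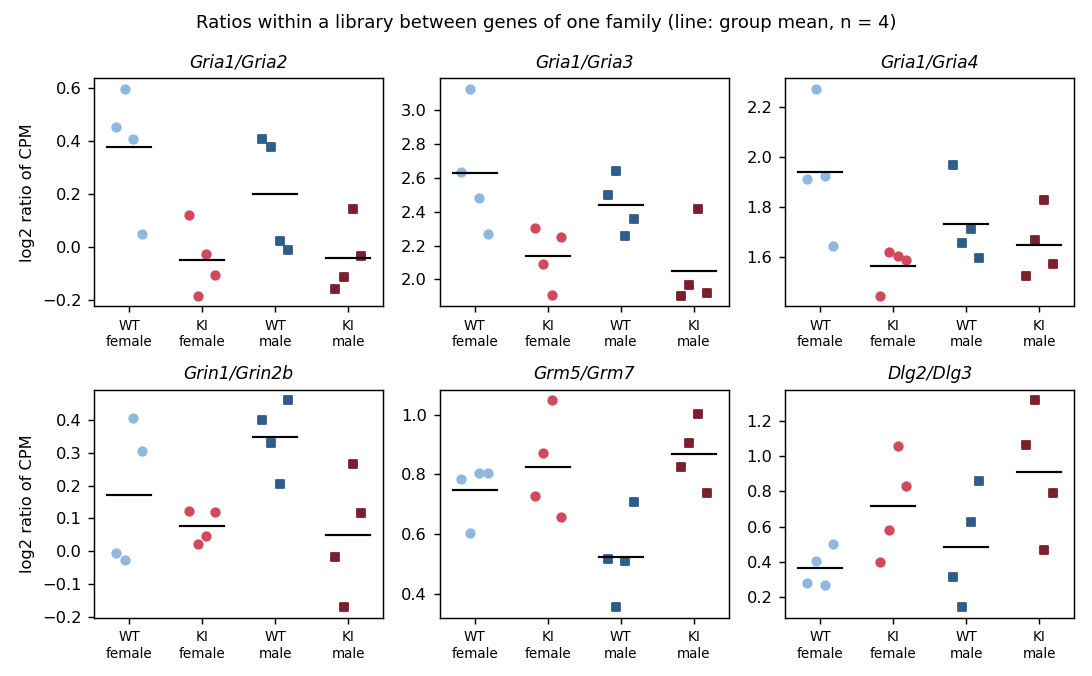
Log2 ratio of CPM between genes of one family (y axes) in each library, by genotype and sex (x axes; n = 4 per group; line, group mean). The Gria1/Gria2 and Gria1/Gria3 means are lower and the Grm5/Grm7 and Dlg2/Dlg3 means higher in KI libraries of both sexes.

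Other genes of the same pathway were read as a list of 52, of which 50 passed the filter and Grin3b and Grm6 did not. Of the 50 genes 41 lay above 0 (median log2 fold change 0.29). Among them 6 were called higher, against 4.33% of all tested genes, and 0 lower. Without both WT female replicates 1 and 2 the count was 2, against 1.6% of all tested genes. It was 13 without WT female replicate 4 (5.88%), 13 without WT male replicate 1 (5.31%) and 15 without KI male replicate 3 (7.24%). The count thus rose and fell with the share of all tested genes. The activity-regulated gene Arc, which drives the removal of AMPA receptors from the surface, had the smallest FDR, with 17.3 ± 4.0 CPM in WT and 30.4 ± 4.8 CPM in KI libraries (SD, n = 8 each), with a fitted log2 fold change of 0.81 (edgeR FDR 0.000897). The others called were the AMPA receptor auxiliary subunits Cacng3 (0.68) and Cacng5 (0.56), the kainate receptor auxiliary subunit Neto2 (0.57), and the scaffolds Lrrc7 (0.59) and Magi2 (0.50). Tanc2, a scaffold with the highest level per exonic length of this list (36.9 CPM per kb in WT), was at a log2 fold change of -0.04 (edgeR FDR 0.70).

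Genes that carry or convert glutamate were read as a further list. Of these 10 genes 9 passed the filter (Slc17a8 did not), 2 of the 9 lay above 0 and the median log2 fold change was -0.13. Slc1a1, the neuronal glutamate transporter, was called higher at 0.59 (edgeR FDR 0.0202). The vesicular transporters Slc17a7 and Slc17a6, which mark glutamate-releasing neurons, were at -0.13 and -0.17 (edgeR FDR 0.784 and 0.802). Glul, the glutamine synthetase of glia, passed the FDR at -0.18 (edgeR FDR 0.0955).

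Markers of other cell types that the bead selection could carry over were summed beside the 29 genes. The 15 neuron markers summed to 424 to 537 CPM in WT and 485 to 698 CPM in KI libraries, and Snap25, Syt1, Map2 and Rbfox3 were all detected. Of these 15, 13 lay above 0, 4 passed the FDR and 0 were called, with a median of 0.18. The 14 olfactory bulb inhibitory neuron markers summed to 237 to 386 and 317 to 528 CPM and had a median of 0.38. They included 10 genes past the FDR and 3 called higher (Dlx6, Meis2 and Synpr). Among all tested genes 6.95% passed the FDR with a higher level in KI libraries and 4.33% were called higher. Gad1, which makes GABA, was at 90.9 ± 20 CPM in WT and 127 ± 22 CPM in KI libraries (SD, n = 8 each).

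The 7 neuroblast markers summed to 72.4 to 96.0 and 80.8 to 143 CPM, with a median of 0.41. Of them 3 were called higher (Dcx, Igfbpl1 and Dlx6os1), against 4.33% of all tested genes. The others were Sox11 at 0.41, Nrep at 0.14, Cd24a at -0.005 and Tubb2b at -0.06. The 7 markers of bulb projection neurons, of which 6 were tested, summed to 21.6 to 89.3 and 35.3 to 71.8 CPM, had a median of -0.08 over both sexes and 0 called, with 0 at an unadjusted p below 0.05. Within females their median was 0.40 and within males -0.23, with 0 called in either and 1 of the 6, Slc17a7, at an unadjusted p below 0.05 in males and in the interaction. Among these markers Lhx5 was not tested, and Tbx21 and Tbr1 had WT means of 0.481 and 0.661 CPM. Oligodendrocyte markers (9 genes) summed to 234 to 437 and 286 to 427 CPM and had a median of 0.39 with 1 called higher (Mog) and 9 of 9 above 0, and oligodendrocyte precursor markers (7 genes) one of 0.18 with 0 called. Astrocyte markers (10 genes) had a median of -0.20 and endothelial markers (10 genes) one of -0.16, each with 0 called over both sexes. In females the endothelial markers had a median of -0.90 with 6 called lower and the astrocyte markers one of -0.58 with 3 called lower. Without both WT female replicates 1 and 2 these medians were -0.30 and -0.10 with 0 called in each, and the endothelial median over both sexes was 0.26. In males the endothelial markers had a median of 0.65 with 0 called and 7 at an unadjusted p below 0.05. The share of all tested genes called lower in females is not given here, nor the share at that p in males. The counts of markers called lower and at that p were therefore not read as results. The neuron covariate used above itself differed, at a mean log2 CPM of 3.83 in WT and 4.01 in KI libraries (n = 8 each). Of the KI libraries 5 lay above every WT library for it, so that fit cannot tell neuron content from genotype. The part of these other cells in the difference of the 29 genes was not tested.

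**Figure D4:**
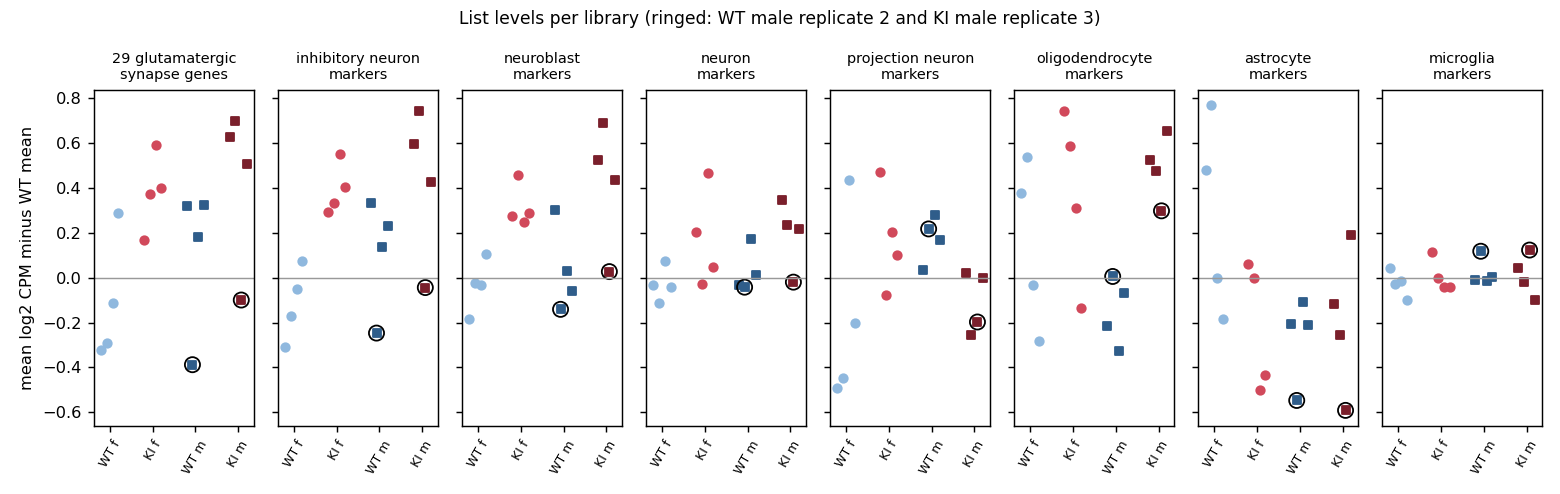
Mean log2 CPM of the 29 genes and of 7 marker lists in each library, as the difference from the WT mean (y axis), by genotype and sex (x axes; f, female, m, male; n = 4 per group). The 29 genes (mean difference 0.41) and the markers of inhibitory neurons (0.41), neuroblasts (0.37) and oligodendrocytes (0.43) are higher in most KI libraries, while the microglia markers stay near 0 (0.01), and the ringed male libraries are low for the 29 genes.

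Long genes were frequent among the 29. Their median span in the annotation was 223.8 kb, against 27.9 kb for the 13672 tested protein-coding genes. Of the tested protein-coding genes, 1.90% of those under 10 kb were called higher, 1.62% at 10 to 30 kb, 1.65% at 30 to 100 kb, 5.13% at 100 to 300 kb and 13.5% over 300 kb. The median log2 fold changes of these bins were -0.02, -0.02, -0.00, 0.03 and 0.23. Of the 29 genes 0 lay under 10 kb, 2 at 10 to 30 kb (0 called, median 0.44), 8 at 30 to 100 kb (0 called, median 0.23), 8 at 100 to 300 kb (4 called, median 0.43) and 11 over 300 kb (5 called, median 0.45). The part of gene length in the result was not tested.

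Within the spans of the 29 genes the annotation lists 70 further genes, in 19 hosts, of which 28 in 8 hosts passed the filter. Of these 28, 27 lay above 0 and 20 were called higher, with a median log2 fold change of 1.22. Most are TEC transcripts, a class still awaiting experimental testing, and all 22 tested TEC transcripts run on the strand of their host, in Dlg2, Grik2, Grm5 and Homer1. All 22 lay above 0, 19 were called higher and their median was 1.33, against 21.1% called higher and a median of 0.33 among the 1149 tested TEC transcripts of the whole table. Transcripts within 1 host lie in the same gene and were not read as independent. Without both WT female replicates 1 and 2, 12 of the nested transcripts were called. The filter on low counts asked for 8 of the 16 libraries, and each genotype has 8. A nested transcript with few counts could therefore pass it by its level in the KI libraries alone. The counts above hold only for transcripts that passed, and those under a stricter filter are not given here.

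Dlg2, the longest of the 29 genes, held 17 of the tested transcripts, with 14 called and log2 fold changes from 0.87 to 1.85, where Dlg2 itself was at 0.45. Gm45177 (chr7:90789172-90791478), a TEC transcript inside Dlg2, averaged 1.59 CPM in WT and 5.33 CPM in KI libraries, a log2 fold change of 1.85 (standard error 0.33, edgeR FDR 0.00186). Gm44847, inside Grm5, was at 1.89 (standard error 0.43, edgeR FDR 0.0102), where Grm5 was at 0.64. In Homer1, which did not pass the FDR itself, Gm47075 and Gm47088 were both called, at 1.11 and 1.07 (edgeR FDR 0.0118 and 0.0152). Reads in these intervals and reads of the host's exons were counted separately, and whether the former come from unspliced host RNA was not tested.

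**Figure D5:**
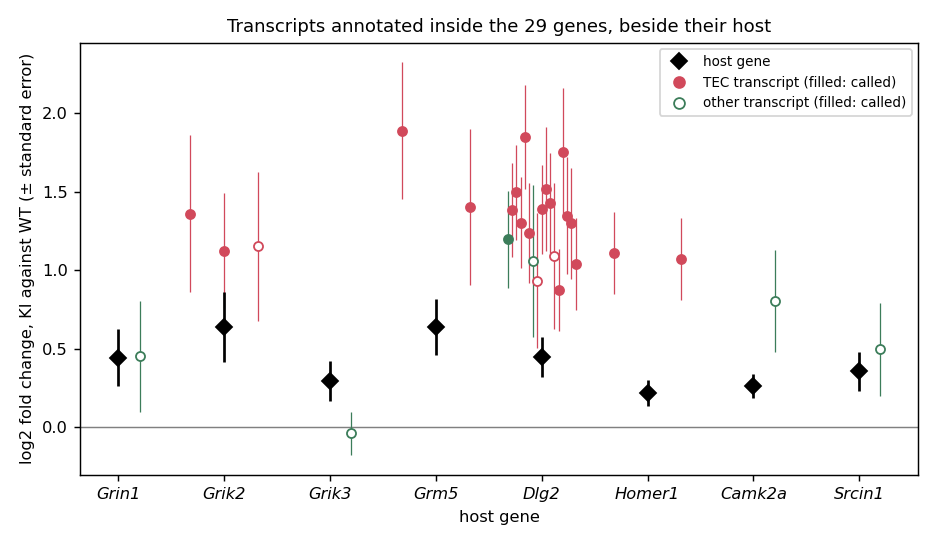
Log2 fold change of KI against WT with its standard error (y axis) for the 28 tested transcripts annotated inside 8 of the 29 genes and for their hosts (x axis; diamonds, hosts; red, TEC transcripts; green, other transcripts; filled, called). The TEC transcripts in Dlg2, Grik2, Grm5 and Homer1 lie above their hosts.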

How the data were processed

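RNA of CD11b-selected olfactory bulb microglia was sequenced as rRNA-depleted, stranded total RNA. The authors mapped the reads with STAR against GRCm39 (gencode vM32), to which they added the human App sequence, and deposited raw counts per gene, 1 column per library. The strand column counted is not given in the sources used here. A reporting form mentions technical replicates, for which the table has no separate columns. Each library was taken as 1 sample, so p-values measure the spread between libraries.

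The filter kept genes that reached 5 counts in 8 or more of the 16 libraries (18227 of 57010 genes, 99.86% of the counts). Counts were scaled by TMM and tested in edgeR 4.0.16 (R 4.3.3) with the quasi-likelihood test and Benjamini-Hochberg adjustment over all tested genes, with genotype and sex as terms, or as 4 groups for the contrasts within sexes and their interaction. The calls followed the study's rule, an FDR below 0.1 with a log2 fold change beyond 0.5 in size. Standard errors are the log2 fold change divided by the root of F. For log2 CPM values a prior count of 2 was added. Exact permutation tests exchanged genotype within sex (4900 arrangements, smallest p 0.000408). Totals of 9052932 to 18117286 counts limit precision for genes with few counts, such as Cacng2. A count of 0 allows up to 3 counts, and none of the 29 genes had one.

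Positions, spans, exonic lengths and promoters came from GRCm39 with gencode vM39, a later release than the one counted on, which matched 96.8% of the table's genes. The procedure was tested on simulated data. All 29 genes are accounted for, with the value in every library for those called and for the gene of largest FDR, and the lowest, median and highest value per genotype for the others past the FDR and for those highest or lowest per exonic length. Of genes outside the lists, the 5 most correlated with the mean of the 29 were to be named, and 1 of them is not reported here. The 29 genes, the lists and the tests were chosen with earlier results of these data known. Alternatives were RLE and upper-quartile scaling, DESeq2 1.42.0, limma voom (limma 3.58.1), other filters and thresholds, a test against the fold threshold, no sex term, a replicate block, a library number term, a neuron covariate, a robust dispersion, separate fits of each sex and leaving out each library.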

Additional observations from a re-analysis of the deposited data

Results flagged for a closer look

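Within the groups of 4 libraries, 14 of 120 combinations of a gene (or the mean of the 29) and a group had a highest or lowest library whose gap to the nearest other exceeded the limit of Dixon's test for 4 values, where chance gives about 1 in 20, or 6. KI male replicate 3 was the lowest for 8 of these, with gaps of 0.941 for Grin1, 0.881 for Grik3, 0.979 for Grik5, 0.891 for Grm7, 0.894 for Shank1, 0.871 for Shank3, 0.866 for Shisa7 and 0.835 for Camk2b. WT male replicate 2 was the lowest for Gria1 (0.931), Grin2b (0.922) and Dlgap1 (0.85). Among females, WT replicate 4 was the highest for Dlg2 (0.869) and Shisa7 (0.895), and KI replicate 3 for Homer1 (0.836). The genes move together, so these are not independent.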

How the results depend on the processing

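The 9 genes called over both sexes were 9 with RLE or upper-quartile scaling, DESeq2, limma voom, no filter, a stricter filter, no sex term, a library number term or a replicate block. In those fits 2.54% (no filter) to 4.83% (limma voom) of all tested genes were called higher. The called genes were 6 with an FDR of 0.05 (2.57% of all tested genes) or a robust dispersion (4.02%). They were 18 at the FDR alone (6.95%) and 0 in edgeR's glmTreat test against a log2 fold change of 0.5 (0.302%). With the neuron covariate (markers with a median log2 fold change of 0.18) they were 0 (0.225%). With 1 library left out they were 3 to 14, and the median log2 fold change was 0.34 to 0.46. In females the 1 called gene became 4 with DESeq2, against 3.43% of all tested genes called higher. With no filter the count was 11, against 2.82% of the 39394 genes then tested. It was 2 at the FDR alone (3.31% of all tested genes) and 9 in a separate fit of females (3.84%). With a library left out it was 0 to 20 (20 without WT female replicate 4, against 6.75%). In males the 0 became 1 with DESeq2 (0.45% of all tested genes) and 5 with no filter (1.1%). With a library left out the count in males was 0 to 4 (4 without KI male replicate 3, against 1.89%). Without both low male libraries the counts over both sexes, in females and in males were 10, 11 and 1, and without WT female replicates 1 and 2 they were 1, 0 and 0, where 1.6%, 0.136% and 0.207% of all tested genes were called higher. The interaction and the comparison of sexes stayed at 0 in every alternative run. The log2 fold change over both sexes kept its sign for all 29 genes in these fits. The smallest ratio differences changed sign: Shank1 to Shank3 was -0.04 with all libraries and -0.0663 to 0.00989 with a library left out (highest without WT female replicate 1), and Grik3 to Grik5 was 0.01 and -0.0519 to 0.0394 (below 0 without WT female replicate 3, and lowest when WT male replicate 4 was left out). The cause of these shifts was not tested.

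The labels number replicates alike in each group. Of 24 same-numbered pairs, 8 had deviations correlated above 0.1 (r from -0.33 to 0.29). Differently numbered pairs were not compared, so these values cannot settle whether the numbers pair the samples. With the replicate block 9 genes were called over both sexes, 1 in females and 0 in males, and the median log2 fold change was 0.40.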
